A study of Eublepharis macularius with 4 samples.

Results

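The mitochondrial genome of the leopard gecko (Eublepharis macularius) is represented by 37 of the 24025 features of the deposited count matrices. These are every feature whose name begins with the locus prefix BW219_, and they comprise 13 protein-coding genes, 2 ribosomal RNA genes and 22 transfer RNA genes. The reference gene table of the assembly MPM_Emac_v1.0 places all of them on the mitochondrial chromosome, MT, between positions 1 and 15374. It pairs the 13 protein-coding genes with symbols such as ND1 and COX1. The tRNA and rRNA genes carry only their locus names there, such as BW219_gt21 and BW219_gr01, and are called by them. The genes were chosen by name and not by any measured value.

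Mitochondrial DNA of vertebrates encodes core subunits of oxidative phosphorylation together with the rRNAs and tRNAs that translate them. In mammals it is transcribed as long precursors, which are cut at the tRNAs into separate RNAs, and most of the resulting mRNAs and rRNAs receive short poly(A) tails. All other subunits of the respiratory chain are encoded in the nucleus. The share of mitochondrial transcripts among all transcripts of a cell is commonly read in single-cell work as a sign of cell state or damage.

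The samples were single-cell RNA libraries of adult leopard gecko jaw, from soft tissue that contained unerupted teeth and dental lamina, the epithelial sheet from which replacement teeth form. Tissue of animal LG252 was dissociated with collagenase D (1.5 U/ml) and dispase II (2.4 U/ml) on a shaker at 37 °C for 4 to 5 h. Tissue of animal LG255 was dissociated with a protease of Bacillus licheniformis (10 mg/ml) at 4 °C for 6 h. Cells that excluded propidium iodide were sorted in both cases, and each animal gave 2 libraries, named replicate 1 and replicate 2. The titles call these biological replicates, and the labels used here leave unsaid if each came from its own tissue piece, so p-values measure only the spread between these libraries, which may be technical. Animal and dissociation protocol changed together, with 1 animal for each protocol, so their contributions cannot be told apart anywhere below.

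The 4 matrices held 8612 barcodes. Total counts of unique molecular identifiers (UMIs) were 20754804 and 12860780 for LG252, against 4535439 and 9830392 for LG255, always in the order replicate 1, replicate 2. Between 2 and 8 barcode sequences were shared by any pair of libraries. Barcodes were put into a class when the marker genes of that class had at least 5 UMIs from at least 2 genes and at least 4 times the UMIs of each other class. This placed 6488 barcodes (75.3%) in classes. A further 360 met the minimum in any of the lists without 4 times the UMIs of each other list (mixed), and 1764 met it in none (ungated). There were 633, 695, 489 and 917 epithelial cells in LG252 replicates 1 and 2 and LG255 replicates 1 and 2, and 419, 829, 22 and 103 mesenchymal cells. The immune class had 2014, 171, 22 and 18 cells, and the endothelial class 42, 74, 26 and 14. The last library of the immune and endothelial classes was under the minimum of 20 cells, so it entered those comparisons only where this is said. Of the marker genes, 19 of 26 epithelial, 22 of 22 mesenchymal, 17 of 26 immune and 23 of 23 endothelial were found in the files. In epithelial cells the summed epithelial markers reached 3770 to 5102 CPM (counts scaled to a fixed total of all UMIs of that class in that library), against 78.6 to 170 CPM for the mesenchymal list, 23.4 to 64.1 CPM for the immune list and 7.79 to 23.0 CPM for the endothelial list. The gate itself requires an excess of the class's own list, so these values describe the gated cells and do not test the classes. The immune list stood at 64.1 and 50.2 CPM in the epithelial cells of LG252 and at 33.7 and 23.4 CPM in those of LG255. Its part in the animal differences was not tested.

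The mitochondrial share of all UMIs was higher in LG255 than in LG252 in every class, and the protein-coding genes carried most of that difference. In epithelial cells the 37 genes made up 1.39% and 1.70% of summed UMIs of LG252 against 5.51% and 4.05% for LG255. In mesenchymal cells the shares were 1.51% and 1.22% against 5.34% and 4.77%. In both classes all LG255 values lay above all LG252 values, and the means differed by 3.24 percentage points (3.10-fold) in epithelial and 3.69 percentage points (3.71-fold) in mesenchymal cells. With 2 libraries against 2 the exact two-sided permutation test gave p = 0.333 for each, the smallest p this design allows. Immune cells held 1.14% and 1.40% in LG252 and 2.79% in LG255 replicate 1. The 18 immune cells of LG255 replicate 2 held 2.94%. Endothelial cells held 1.43% and 1.58% in LG252 and 3.66% in LG255 replicate 1, and the 14 cells of LG255 replicate 2 held 3.90%. The separation of the animals was thus seen in 4 of 4 classes, with and without the libraries of few cells.

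**Figure D1:**
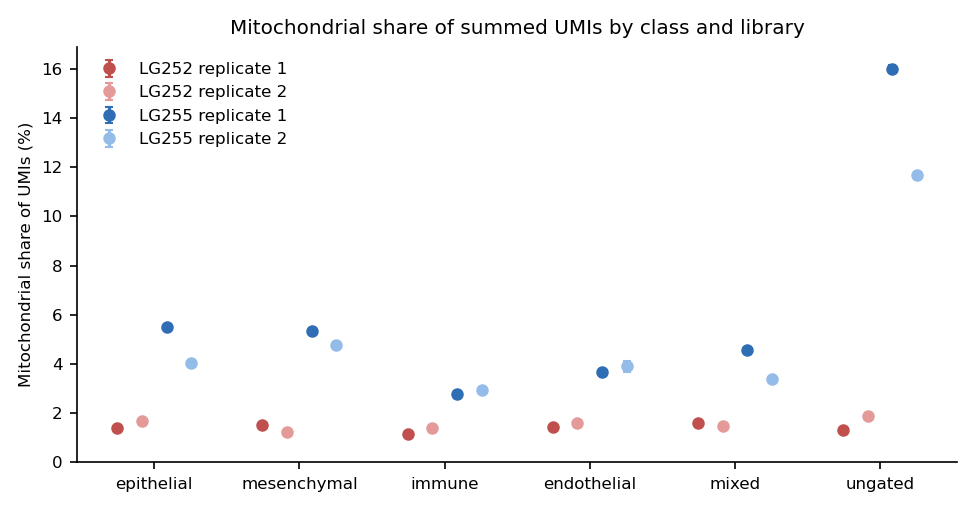
Mitochondrial share of summed UMIs (%, linear axis) in each library, by marker-gated class and for mixed and ungated barcodes; bars are exact binomial 95% intervals, which cover counting error only. LG255 points (blue) lie above LG252 points (red) in each category, and the ungated barcodes of LG255 stand highest at 16.0% and 11.7%.

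Median values per cell gave the same order, with 1.16% and 1.51% in LG252 epithelial cells and 4.82% and 3.85% in LG255 epithelial cells. Cells above 20% mitochondrial UMIs were 0.632% and 0.288% of epithelial cells in LG252 and 11.7% and 2.18% in LG255. Within each of the 4 libraries, epithelial cells of fewer UMIs had a larger mitochondrial share, with Spearman coefficients of -0.44, -0.33, -0.67 and -0.50 over 633, 695, 489 and 917 cells. The cells of 1 library share its chemistry, and the UMI count is also the denominator of the share. Median depth of epithelial cells was 11338 and 8092 UMIs in LG252 and 6283 and 8906 UMIs in LG255, so the groups overlapped in depth.

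The same direction was found within finer epithelial gates. Cells with basal epithelial markers held 1.20% and 1.63% in LG252 against 5.42% and 4.07% in LG255. Cells with dental epithelial markers, which number 37, 47, 20 and 49 in the 4 libraries, held 1.33% and 1.43% against 4.83% and 3.46%. Cells with markers of chemosensory (taste) epithelium were few, at 19, 11, 10 and 16, and held 2.33% and 2.20% against 6.03% and 3.99%. In both LG252 libraries and in LG255 replicate 1 the chemosensory gate had the highest share of these gates, and in LG255 replicate 2 the basal gate had. Among immune cells of LG252, those with T cell markers held 0.899% and 1.13%, those with B cell markers 1.22% and 1.25%, and those with macrophage markers 1.17% and 1.78%. LG255 had 9 or fewer cells in each immune gate of each library, too few for a comparison. Cells with B cell markers were 1482 of 2014 and 59 of 171 immune cells in LG252. In LG255 they were 2 of 22 and 1 of 18. The immune class thus held a different mix of cells in the animals, and the part of this in its animal difference was not tested.

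The make-up of the mitochondrial RNA differed between the animals as well. rRNA made up 64.8% and 53.0% of mitochondrial UMIs in the epithelial cells of LG252 but 23.0% and 29.0% in those of LG255. In mesenchymal cells it made up 84.0% and 67.1% against 18.9% and 20.6%. Immune cells gave 53.4% and 45.8% against 22.1%, with 19.9% in the 18 cells of LG255 replicate 2. Endothelial cells gave 51.4% and 56.4% against 18.8%, with 20.2% in the 14 cells of the last library. The lowest LG252 share exceeded the highest LG255 share in all 4 classes, with exact two-sided permutation p = 0.333 in the epithelial and mesenchymal classes, again the smallest possible. The ratio of rRNA UMIs to protein-coding UMIs was 1.89 and 1.17 in LG252 epithelial cells and 0.303 and 0.414 in LG255 epithelial cells, and 5.45 and 2.13 against 0.237 and 0.262 in mesenchymal cells.

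Relative to all RNA counted, the ratio of LG255 to LG252 was larger for the summed protein-coding RNA than for the summed rRNA in each class. Summed rRNA was 8995 and 9007 CPM in LG252 epithelial cells and 12658 and 11748 CPM in LG255 epithelial cells, a mean ratio of 1.36. In mesenchymal cells the summed rRNA overlapped between the animals, at 12643 and 8175 CPM against 10103 and 9822 CPM. Summed protein-coding RNA was 4770 and 7676 CPM against 41786 and 28377 CPM in epithelial cells, 5.64-fold higher in LG255. It was 2321 and 3829 CPM against 42652 and 37430 CPM in mesenchymal cells, 13.02-fold higher in LG255. In immune cells it was 5239 and 7376 CPM against 21480 CPM, and in endothelial cells 6809 and 6690 CPM against 29350 CPM, each LG255 value being replicate 1. A CPM value is a share of the UMIs counted in a class, so a lower content of other RNA and a higher content of mitochondrial RNA cannot be told apart.

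**Figure D2:**
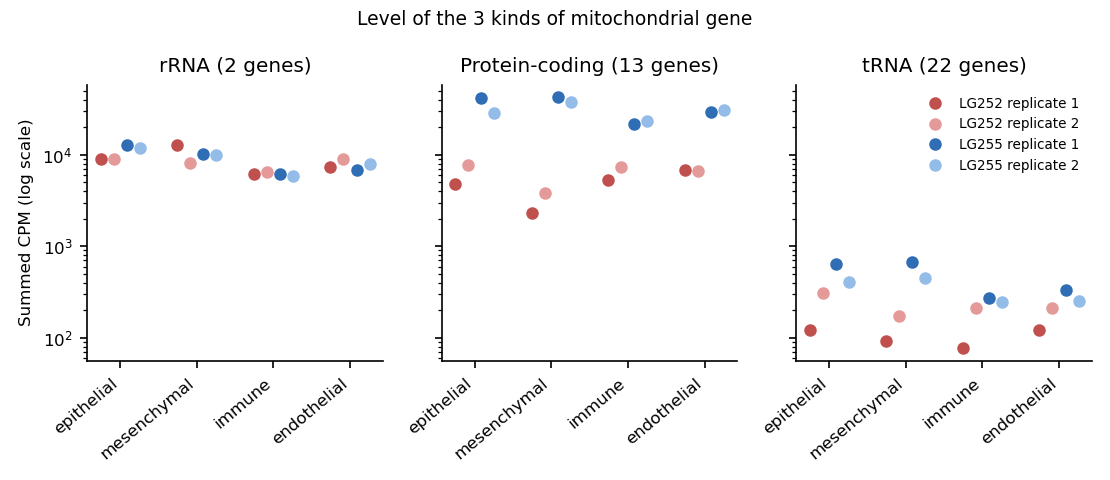
Summed CPM (log axis) of the 2 rRNA, 13 protein-coding and 22 tRNA genes by class, 1 point per library. The rRNA points of LG252 (red) and LG255 (blue) overlap except in epithelial cells, and the protein-coding points of LG255 lie above those of LG252 in each class.

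The difference in make-up was also seen among cells of like mitochondrial share, a split chosen after seeing the data. Epithelial cells with 2 to 5% mitochondrial UMIs numbered 103 and 185 in LG252 and 234 and 602 in LG255. rRNA made up 68.7% and 56.8% of their mitochondrial UMIs in LG252 and 22.5% and 26.9% in LG255. At 5 to 10% the shares were 79.2% and 73.0% against 26.9% and 34.7%. The groups did not overlap in either range. Cells of like share were not alike in other ways. The third quartile of the share was 2% and 2.41% in LG252 epithelial cells, and the median was 4.82% and 3.85% in LG255. The range of 2 to 5% thus took the upper part of LG252 and typical cells of LG255. Median depth in that range was 7743 and 6836 UMIs in LG252 and 9534.5 and 10042 UMIs in LG255. Along the range within an animal the LG252 libraries moved from 64.3% and 52.1% below a mitochondrial share of 1% to 79.2% and 73.0% at 5 to 10%, after lower values of 56.8% and 42.1% at 1 to 2%. The LG255 libraries stayed at or below 34.7% in each range that held at least 20 cells.

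**Figure D3:**
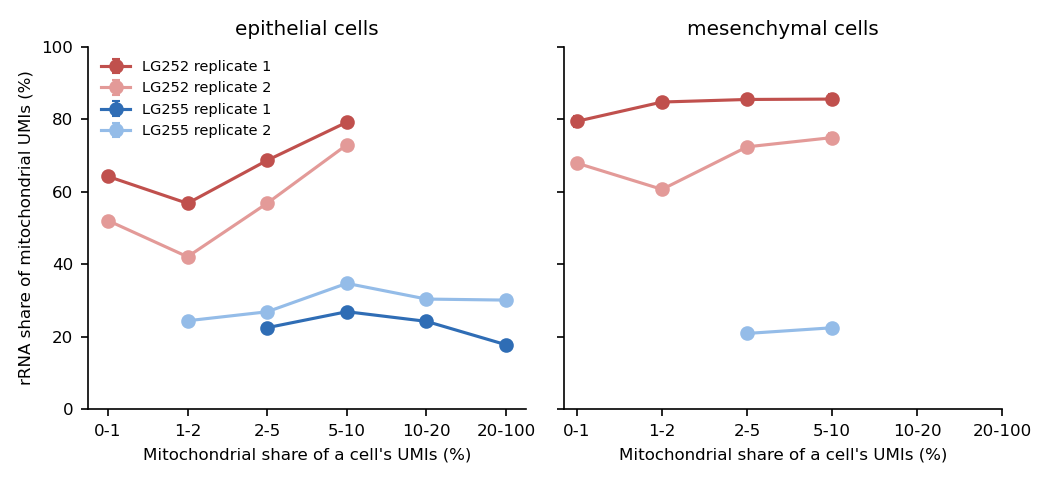
rRNA share of mitochondrial UMIs (%) in epithelial (left) and mesenchymal (right) cells split by the mitochondrial share of the cell, 1 line per library, with exact binomial 95% intervals for counting error and only ranges of at least 20 cells. At 2 to 5% the epithelial LG252 libraries stand at 68.7% and 56.8% and the LG255 libraries at 22.5% and 26.9%.

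Heat-shock genes moved with the animals as well. The summed level of 11 heat-shock genes was 15665 and 11231 CPM in LG252 epithelial cells and 1878 and 1739 CPM in LG255 epithelial cells, and 10993 and 8756 against 1277 and 1620 CPM in mesenchymal cells. Its part in the mitochondrial differences was not tested.

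Gene by gene, 29 of the 37 mitochondrial genes passed the filter on low counts in epithelial cells, and their UMIs were tested between the animals with edgeR's quasi-likelihood test, with Benjamini-Hochberg adjustment over all 12795 features and a threshold of 0.05. Of these, 15 were higher and 4 lower in LG255, where 13.1% and 21% of all features were called higher and lower and 34.1% in either direction. The 8 genes that failed the filter were all tRNAs. In 16 of the 29 both LG255 values lay above both LG252 values and in 6 below, beside 39.7% and 29.5% of all features. The number of calls was 12 without LG255 replicate 1.

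Complex IV, cytochrome c oxidase, transfers electrons to oxygen, and its subunits I, II and III are encoded by COX1, COX2 and COX3. COX1 was at 960 and 1539 CPM in LG252 epithelial cells and at 12421 and 7970 CPM in LG255 epithelial cells. Both LG255 libraries were above both LG252 libraries, with a log2 fold change of 2.89 (SE 0.34, adjusted p = 0.000174). COX2 was at 806 and 1214 CPM against 6734 and 5221 CPM, a log2 fold change of 2.44 (SE 0.31, adjusted p = 0.000259). COX3 was at 578 and 1113 CPM against 5201 and 3518 CPM, a log2 fold change of 2.23 (SE 0.35, adjusted p = 0.000958). All 3 genes of this complex were therefore higher in LG255. COX1 alone gave 6.91% and 9.06% of mitochondrial UMIs in LG252 epithelial cells and 22.6% and 19.7% in LG255, where it replaced BW219_gr01 as the gene with the most mitochondrial UMIs.

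CYTB encodes cytochrome b, the mitochondrial subunit of complex III, which passes electrons from ubiquinol to cytochrome c. It was at 156 and 304 CPM in LG252 epithelial cells and at 2289 and 1439 CPM in LG255, a log2 fold change of 2.88 (SE 0.35, adjusted p = 0.000213). ATP6 and ATP8 encode subunits of the membrane part of ATP synthase, complex V. ATP6 was at 520 and 720 CPM against 4960 and 3806 CPM, a log2 fold change of 2.69 (SE 0.29, adjusted p = 0.000107). ATP8 was far lower, at 16.1 and 27.8 CPM against 86.8 and 34.4 CPM, a log2 fold change of 1.28 (SE 0.35, adjusted p = 0.0177). The annotations of ATP8 and ATP6 share 10 bases, so reads there could be counted for either gene or for none.

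Complex I, NADH dehydrogenase, passes electrons from NADH to ubiquinone, and 7 mitochondrial genes encode its membrane core. ND1 differed most among them, at 278 and 473 CPM in LG252 epithelial cells and 2915 and 2027 CPM in LG255, a log2 fold change of 2.58 (SE 0.32, adjusted p = 0.000227). ND3 was at 171 and 381 CPM against 1436 and 963 CPM, a log2 fold change of 1.99 (SE 0.36, adjusted p = 0.00232). ND6, ND4, ND5 and ND2 also rose in LG255, with log2 fold changes of 1.73, 1.55, 1.30 and 1.14. ND4L was the 1 protein-coding gene that was not called, at 45.3 and 69.7 CPM against 134 and 45.1 CPM, with a log2 fold change of 0.45 (SE 0.37, adjusted p = 0.368). Its lowest value was in an LG255 library, so the animals overlapped. ND4L shares 7 bases with ND4.

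The subunits thus differed in degree. Complex I genes gave 36.4% and 35.9% of protein-coding mitochondrial UMIs in LG252 epithelial cells and 24.2% and 22.5% in LG255. Complex IV genes gave 49.1% and 50.4% against 58.3% and 58.9%, complex III 3.27% and 3.96% against 5.48% and 5.07%, and complex V 11.2% and 9.74% against 12.1% and 13.5%. In mesenchymal cells complex I gave 41.6% and 40.4% for LG252 against 28.7% and 26.5% for LG255, and complex IV 38.99% and 42.9% against 50.9% and 50.8%. The shares of complexes I and IV did not overlap between the animals in epithelial or mesenchymal cells. In immune and endothelial cells complex I was also lower in LG255, but complex IV overlapped. It gave 59.8% and 57.0% in LG252 immune cells against 58.7% in LG255 replicate 1. In endothelial cells it gave 56.4% and 50.9% against 59.0%, with 52.9% in the 14 cells of LG255 replicate 2. How often such shares separate for other sets of genes was not worked out.

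Per kilobase of gene length, COX2 had the highest CPM of the protein-coding genes in the epithelial cells of all 4 libraries. It was at 1176 and 1773 CPM per kb in LG252 and 9831 and 7621 CPM per kb in LG255. ND6 had the lowest in all 4, at 6.30, 8.67, 49.8 and 10.5 CPM per kb. In mammals ND6 is encoded on the other strand from the remaining protein-coding genes. ATP6, COX3 and COX1 followed COX2 in 3 of the libraries, in orders that differed between libraries, and in LG252 replicate 2 ND3 came before ATP6 and COX1. CYTB was ranked 11 and 10 of 13 in LG252 and 8 in both LG255 libraries. Before division by length COX1 had more UMIs than COX2, at 7383 against 6194 and 9634 against 7600 in LG252. In LG255 it had 43510 against 23590 and 66495 against 43555. The order of these genes thus depends on the division, which takes UMIs to grow with gene length, and that was not tested.

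Both rRNA genes had smaller log2 fold changes than 12 of the 13 protein-coding genes. BW219_gr02 (934 bases, MT 74 to 1007) was at 2086 and 2107 CPM in LG252 epithelial cells and 4097 and 4502 CPM in LG255, a log2 fold change of 0.93 (SE 0.28, adjusted p = 0.0282). BW219_gr01 (1551 bases, MT 1077 to 2627) was at 6909 and 6900 CPM against 8562 and 7246 CPM, a log2 fold change of 0.07 (SE 0.28, adjusted p = 0.870). The rise of BW219_gr02 passed the test and that of BW219_gr01 did not, and the difference between the genes was not tested itself. As a share of mitochondrial UMIs, BW219_gr01 stood at 49.8% and 40.6% in LG252 and 15.5% and 17.9% in LG255.

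tRNA UMIs were, as means over libraries, 1.03% to 1.35% of mitochondrial UMIs in the 4 classes of LG252 and 0.781% to 1.10% in those of LG255. LG255 replicate 2 entered all 4 means, with 16 tRNA UMIs in its 18 immune cells and 7 in its 14 endothelial cells. Mature tRNAs carry no poly(A) tail in mammals, so poly(A) capture is not designed to take them up. Of 22 tRNA genes, 14 passed the filter in epithelial cells, and 2 were higher and 4 lower in LG255, shares near the 13.1% and 21% of all features.

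BW219_gt21 (MT 15235 to 15304) had the largest positive difference of the tested mitochondrial genes. It begins at the base after the end of CYTB (MT 14099 to 15234), and it had 44 and 106 UMIs in LG252 epithelial cells against 1601 and 2694 in LG255, that is 5.72 and 16.9 CPM against 457 and 323 CPM. Both LG255 libraries were far above LG252, and the log2 fold change was 4.99 (SE 0.44, adjusted p = 3.13e-05). The pooled CPM ratio was 33.7 (95% interval from counting error 28.6 to 39.9), against 7.60 for CYTB (7.32 to 7.90). Set against the CYTB counts of the same cells, there were 3.67 and 5.57 BW219_gt21 UMIs per 100 CYTB UMIs in LG252 and 19.97 and 22.4 in LG255. In mesenchymal cells the values were 1.18 and 1.21 against 21.2 and 19.7, in immune cells 4.98 and 12.4 against 21.5 in LG255 replicate 1, and in endothelial cells 2.78 and 5.19 against 26.9 in LG255 replicate 1. LG255 replicate 2 had 13 BW219_gt21 UMIs in its 18 immune cells and 6 in its 14 endothelial cells. All of these LG255 ratios were above all LG252 ratios in each class. BW219_gt22, which follows BW219_gt21 directly, had between 4 and 8 UMIs in epithelial cells of each library.

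The 4 tRNA genes called lower in LG255 epithelial cells lie on either side of ND2, a position that depends on the threshold. BW219_gt13, just before COX2, and BW219_gt15, just after COX3, were not called but also had lower CPM in both LG255 libraries. BW219_gt13 had 17 and 23 UMIs in LG252 against 7 and 5 in LG255, and BW219_gt15 had 15 and 26 against 6 and 5. BW219_gt06 (MT 3816 to 3885), between ND1 and ND2, had 343 and 525 UMIs in LG252 epithelial cells and 39 and 31 in LG255, a log2 fold change of -3.39 (SE 0.41, adjusted p = 0.000200). In both LG252 libraries it had the highest CPM per kilobase of all tRNA genes, and in both LG255 libraries BW219_gt21 had. BW219_gt08, BW219_gt09 and BW219_gt11 lie between ND2 and COX1. BW219_gt11 had 35 and 40 UMIs against 1 and 2, a log2 fold change of -4.39 (SE 0.59, adjusted p = 0.000385), and the pooled CPM was 21.2-fold higher in LG252 (95% interval from counting error 6.99 to 105). BW219_gt08 had 20 and 54 UMIs against 6 and 6 (log2 fold change -2.44) and BW219_gt09 had 12 and 29 against 4 and 5 (log2 fold change -2.01). BW219_gt07, directly before BW219_gt08, went the other way, with 4 and 5 UMIs against 19 and 15 (log2 fold change 2.16, SE 0.65, adjusted p = 0.0274). BW219_gt07 and BW219_gt08 share 1 base. The strand of these genes was not used here.

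By position, with strand not used, 9 tRNA genes come next after an mRNA gene. For BW219_gt21 and BW219_gt07 the epithelial ratio to that mRNA was higher in both LG255 libraries. It was lower in both for 6 and overlapping for BW219_gt12, which shares 34 bases with COX1. Most of the 9 had under 20 UMIs in some libraries. These mRNAs had higher CPM in both LG255 libraries, so a lower ratio need not mean less of the tRNA. How often such ratios separate for other pairs of genes was not worked out. BW219_gt07, separated from ND2 by 1 base, had 0.198 and 0.194 UMIs per 100 ND2 UMIs in LG252 against 0.513 and 0.305 for LG255. BW219_gt04, which begins 2 bases after ND1, had 5.42 and 7.29 UMIs per 100 ND1 UMIs in LG252 epithelial cells and 0.735 and 0.586 in LG255, and in mesenchymal cells 8.26 and 6.98 against 0.875 and 0.463. Its own CPM overlapped between the animals, at 15.1 and 34.5 against 21.4 and 11.9 CPM, with a log2 fold change of -0.74 that was not called (adjusted p = 0.133). BW219_gt17, after ND4, had 0.517 and 1.37 UMIs per 100 ND4 UMIs against 0.327 and 0.189.

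**Figure D4:**
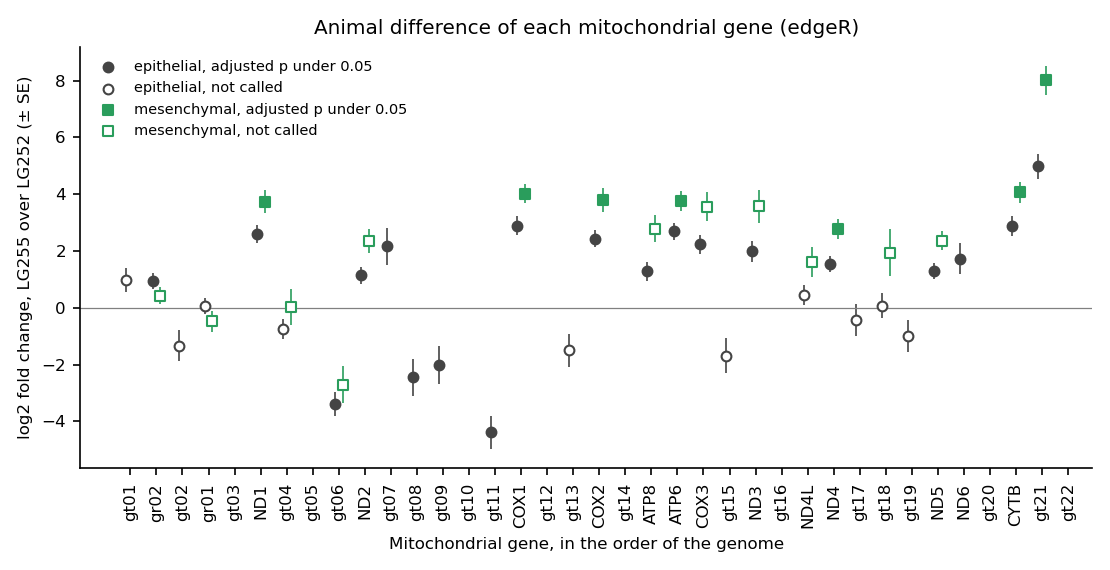
log2 fold change of each tested mitochondrial gene between LG255 and LG252 (edgeR, bars are SE) in epithelial (circles) and mesenchymal (squares) cells, in genome order; filled symbols passed the adjusted threshold. BW219_gt21 is highest in both classes, the protein-coding genes lie above 0, and BW219_gt06 and BW219_gt11 are lowest in epithelial cells.

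In mesenchymal cells 18 of the 37 genes passed the filter, and 7 were called, all higher in LG255, where 0.397% of all 7553 features were called in either direction and 0.106% higher. They were ND1, COX1, COX2, ATP6, ND4, CYTB and BW219_gt21. COX1 was at 374 and 474 CPM in LG252 and 8686 and 6998 CPM in LG255, a log2 fold change of 4.02 (SE 0.34, adjusted p = 0.0110). CYTB was at 88.8 and 106 CPM against 2108 and 1625 CPM, a log2 fold change of 4.06 (SE 0.35, adjusted p = 0.0123). BW219_gt21 had 1 and 5 UMIs against 51 and 138, a log2 fold change of 8.01 (SE 0.50, adjusted p = 0.00949). The pooled CPM ratio of BW219_gt21 was 279 (95% interval from counting error 126 to 769). For 15 of the 18 genes both LG255 values lay above both LG252 values and for 1 below, beside 28.6% and 19.4% of all features. BW219_gr02 and BW219_gr01 had log2 fold changes of 0.43 and -0.48 and were not called (adjusted p = 0.603 and 0.633). LG255 replicate 1 rests on 22 cells. When either LG255 library was left out edgeR called 0 genes, with an unadjusted p under 0.05 for 14 in both cases, and 14 were called without LG252 replicate 2 and 13 without LG252 replicate 1.

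In immune cells COX1 was at 1220 and 1591 CPM in LG252 and 6507 CPM in LG255 replicate 1, and CYTB at 83.5 and 165 CPM against 1040 CPM. With these 3 libraries the spread comes from the LG252 pair alone, and the lone LG255 library of 22 cells is assumed to vary like it. On that footing edgeR called 0 of 18 tested mitochondrial genes, where 0.179% of all features were called, 0.0383% higher and 0.141% lower. Of the 18 genes, 8 had an unadjusted p under 0.05, and DESeq2 called 4. With the 18 cells of LG255 replicate 2 added, at 5909 CPM for COX1 and 809 CPM for CYTB, edgeR again called 0 of 15, where 0.447% of all features were called and 0.156% higher, and 9 had an unadjusted p under 0.05. For 12 of these 15 both LG255 values lay above both LG252 values and for 1 below, beside 31.9% and 24.5% of all features. In endothelial cells COX1 was at 1515 and 1191 CPM against 7140 CPM, with 5995 CPM in the 14 cells of LG255 replicate 2. With 3 libraries, where the lone LG255 library of 26 cells is again assumed to vary like the LG252 pair, edgeR called 9 of 14 tested genes, all higher in LG255, where 11.2% of all features were called, 2.28% higher and 8.92% lower. With all 4 libraries it called 9 of 13, all higher in LG255, where 20% of all features were called in either direction and 4.94% higher.

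The animal difference itself was compared between mesenchymal and epithelial cells by an interaction term. Of 27 mitochondrial genes tested, 1 was called, beside 0.281% of all features, 0.0532% higher and 0.228% lower. BW219_gt21 differed more in mesenchymal than in epithelial cells, by 3.18 on the log2 scale (SE 0.61, adjusted p = 0.0331). The call rests on 6 UMIs in LG252 mesenchymal cells and was lost with a looser gate, without cells above 20%, after thinning, without the library block, and without LG252 replicate 2 or either LG255 library. Without LG252 replicate 1 there were 12 mitochondrial genes called, and without LG252 replicate 2 there were 11. The 13 protein-coding genes had interaction values from 0.86 to 1.52 log2 units and the 2 rRNA genes -0.68 and -0.67, with adjusted p from 0.0697 upwards. Counts of genes called in one class and not in another are therefore not a measured difference between classes. Between immune and epithelial cells 0 of 34 were called in 3 libraries (0.0432% of all features), 6 had an unadjusted p under 0.05, and DESeq2 called 0; with LG255 replicate 2 added, 4 were called, all with a smaller animal difference in immune cells (1.79% of all features).

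The classes were also compared within each library. The epithelial share of mitochondrial UMIs exceeded the immune share by 0.248, 0.299 and 2.72 percentage points in the 3 libraries compared, and by 1.11 in the library with 18 immune cells. With 3 pairs the exact two-sided permutation test gave p = 0.250, the smallest possible, and with 4 pairs p = 0.125. The epithelial share differed from the mesenchymal share by -0.12, 0.48, 0.17 and -0.72 percentage points, with no shared direction (exact permutation p = 0.875). Endothelial cells differed from epithelial cells by 0.04, -0.12 and -1.85 percentage points (exact permutation p = 0.500).

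With edgeR's TMM scaling and the library as a block, 10 of 27 tested mitochondrial genes were higher in epithelial than in mesenchymal cells and 0 lower, where 30.8% of all features were called and 16.7% higher. Among them were COX1 (log2 difference 1.46, SE 0.21, adjusted p = 0.000124), COX3 (1.17), CYTB (1.08), ND1 (0.96) and BW219_gr02 (0.87). Against immune cells 9 of 27 were higher in epithelial cells, where 33% of all features were called and 20.1% higher: ATP8, ND4L, CYTB, BW219_gr01 and 5 tRNA genes. ND4L differed by 1.38 log2 units (SE 0.30, adjusted p = 0.00168) and CYTB by 1.23 (SE 0.31, adjusted p = 0.00535). Endothelial cells were lower than epithelial cells for 11 of 25 genes, where 23.8% of all features were called, 9.39% higher and 14.4% lower. Between immune and mesenchymal cells 1 of 20 was called, where 25.8% of all features were and 10.3% were higher in immune cells. BW219_gr01 was lower in immune cells, with a log2 difference of -0.88 (SE 0.27, adjusted p = 0.0448). These class differences depended on the scaling. With library totals only, as an alternative chosen after seeing the data, 1 gene was called higher in epithelial than in mesenchymal cells, 5 higher than in immune cells, and 1 lower in endothelial than in epithelial cells. The median of all features moved with it, from 0.04 to -0.44, from 0.12 to -0.09 and from -0.29 to 0.31 log2 units respectively. Of the 13 protein-coding genes, 13 lay higher in epithelial than in mesenchymal cells with TMM and 11 with totals only. Without the library block 0, 0 and 2 genes were called in the same 3 comparisons, with an unadjusted p under 0.05 for 2, 4 and 3. Single libraries also decided the counts: leaving out LG252 replicate 2 left 4 calls between epithelial and mesenchymal cells, leaving out either LG252 library left 2 against immune cells, and leaving out LG252 replicate 2 or LG255 replicate 1 left 2 or 3 in endothelial cells. Leaving out LG255 replicate 1 gave 5 between immune and mesenchymal cells.

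The nuclear genes of oxidative phosphorylation had smaller animal differences than most mitochondrial protein-coding genes, apart from a pair that was far lower in LG255. Of 82 listed, 56 were found by symbol, with 35 of 37 for complex I, 4 of 4 for complex II, 16 of 18 for complex V, 1 of 14 for complex IV and 0 of 9 for complex III, so the list speaks mainly for complexes I and V. In epithelial cells 4 were higher and 3 lower in LG255, a smaller share in each direction than the 13.1% and 21% of all features, with a median log2 fold change of 0.26 beside 0.02 for all features. NDUFA2, an accessory subunit of complex I, was at 71.7 and 77.0 CPM in LG252 and 179 and 196 CPM in LG255, a log2 fold change of 1.23 (SE 0.22, adjusted p = 0.00241). NDUFA9 and NDUFA4 also rose, with log2 fold changes of 0.79 and 0.74. ATP5MG, a small subunit of ATP synthase, was at 1261 and 1482 CPM in LG252 and 34.0 and 26.2 CPM in LG255, a log2 fold change of -5.64 (SE 0.30, adjusted p = 3.83e-06). NDUFAB1, the mitochondrial acyl carrier protein, was at 408 and 372 CPM against 25.7 and 23.1 CPM, a log2 fold change of -4.12 (SE 0.25, adjusted p = 5.45e-06). NDUFB8 fell by 1.58. In mesenchymal cells edgeR called 0 of 56, with an unadjusted p under 0.05 for 6, and DESeq2 called 3, with an edgeR median of 0.40 beside -0.02 for all features. ATP5MG was still lower in LG255 there, at 1267 and 1686 CPM against 96.2 and 18.5 CPM (11 and 8 UMIs). NDUFAB1 was at 296 and 499 CPM against 8.75 and 46.4 CPM (1 and 20 UMIs). In LG255 replicate 1 both were also below LG252 in immune and endothelial cells. ATP5MG was at 839 and 1286 against 17.2 CPM in immune and 584 and 1078 against 42.1 CPM in endothelial cells. NDUFAB1 was at 227 and 264 against 0 CPM and 143 and 328 against 10.5 CPM.

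**Figure D5:**
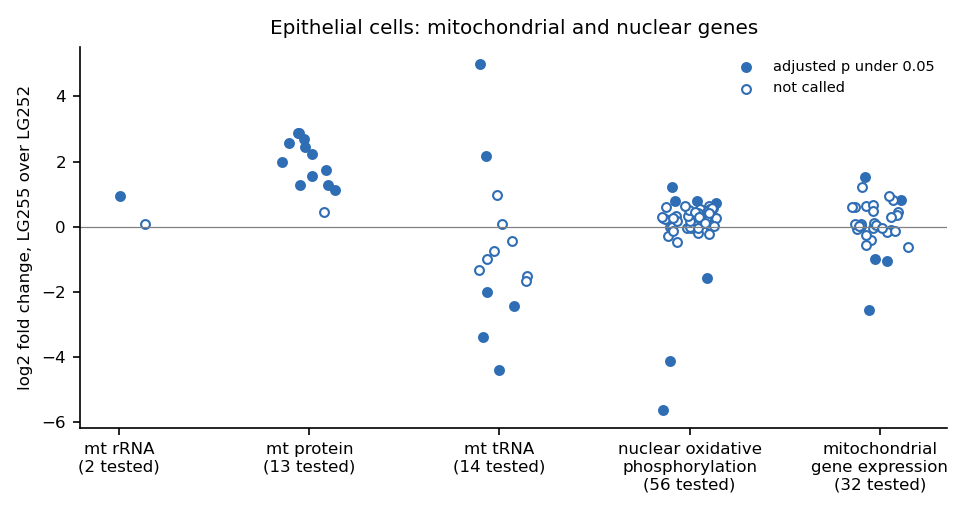
log2 fold change between LG255 and LG252 in epithelial cells (edgeR), 1 point per tested gene, for the mitochondrial rRNA, protein-coding and tRNA genes, the nuclear oxidative phosphorylation genes and the genes of mitochondrial gene expression; filled points passed the adjusted threshold. The 13 mitochondrial protein-coding genes lie between 0.45 and 2.89, whereas most nuclear genes lie near 0. Exceptions include ATP5MG at -5.64, NDUFAB1 at -4.12 and ESRRA at -2.57.

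Genes that serve mitochondrial transcription, RNA processing and their regulation were found for 32 of 34 symbols. In epithelial cells 2 were higher and 3 lower in LG255, again a smaller share in each direction than the 13.1% and 21% of all features, with a median of 0.07 beside 0.02. MTERF1, a mitochondrial transcription termination factor, was at 3.77 and 3.84 CPM against 14.0 and 10.2 CPM, a log2 fold change of 1.52 (SE 0.29, adjusted p = 0.00290). SUPV3L1, the helicase of the mitochondrial RNA degradation complex, rose by 0.83. TRMT10C, a subunit of mitochondrial RNase P, which cuts the 5-prime ends of tRNAs, fell by 0.99, from 43.7 and 38.4 CPM to 24.0 and 21.0 CPM. ESRRA and PPARGC1B, nuclear regulators of mitochondrial genes, fell by 2.57 and 1.05. Between classes, where the scaling matters as above, 11 of 56 nuclear oxidative phosphorylation genes were higher in epithelial than in immune cells, near the 20.1% of all features, with a median of 0.57 beside 0.12. Against mesenchymal cells 4 of 56 were higher, below the 16.7% of all features, with a median of 0.19 beside 0.04. In endothelial cells 23 of 56 were lower than in epithelial cells, where 14.4% of all features were, with a median of -0.81 beside -0.29.

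Barcodes that met no marker gate differed most between the animals. Their mitochondrial share was 1.31% and 1.87% in LG252 (1143 and 327 barcodes) and 16.0% and 11.7% in LG255 (138 and 156 barcodes). In LG255 48.6% and 39.7% of them were above 20% mitochondrial UMIs, against 2.01% and 4.59% in LG252. Their median depth was 2756 and 2298 UMIs in LG252 and 1305.5 and 1026.5 UMIs in LG255. Without mitochondrial UMIs the medians were 2724 and 2233 against 1047.5 and 859.5. A gate needs at least 5 UMIs of nuclear marker genes, so barcodes with few nuclear UMIs met it less easily. How far this set the shares of ungated and gated barcodes was not tested. The rRNA share of mitochondrial UMIs was 65.5% and 62.3% against 19.2% and 24.6%, the same order as in the gated classes.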

How the data were processed

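UMI counts per feature and cell barcode were deposited by the authors without normalisation, as Cell Ranger matrices whose file headers give version 7.1.0, while the submitters' processing notes list version 2.1.0. MPM_Emac_v1.0 is the assembly named in the series' design text. The release of the annotation and the use of intronic reads are not given in the sources used here. Coordinates and symbols come from the RefSeq gene table of that assembly. Mitochondrial genes and marker lists were chosen with earlier results of these data known. The named genes were all mitochondrial features and, of the nuclear lists, the 3 called genes of smallest p in each direction between the animals in epithelial cells. Nuclear genes called between classes are not named. Class results of the list for mitochondrial gene expression are left out, though some of its genes were called there. The UMIs of all cells of a class were added up within each library, which served as the replicate, and tested with edgeR 4.0.16 (filterByExpr, TMM, quasi-likelihood, Benjamini-Hochberg) over all features in R 4.3.3. Shares were compared by exact permutation over libraries, and binomial intervals (exact Clopper-Pearson, 95%) cover counting error only. On simulated data the epithelial test of 12790 features recovered 98% of log2 changes of 3 and 19% of changes of 1. The mesenchymal test of 7618 features recovered 98% and 11%. The simulated counts had the same fixed spread (dispersion) for every gene, library and class. These rates therefore need not hold for the real libraries. In the real mesenchymal cells 6 of 12 tested protein-coding genes were called, at a median log2 fold change of 3.57. No cell was removed in the main analysis; Scrublet in scanpy 1.11.5 called 15 doublets by its own threshold (0.174%, so it was not relied on) and 209 at an assumed 0.8% per 1000 cells, whose removal was an alternative. The other alternatives were a gate at 3 UMIs and 2-fold, a gate by share of UMIs, at most 20% mitochondrial UMIs, cells thinned to 1000 UMIs, the mean over cells, DESeq2 1.42.0 and its size factors, no filter, scaling without mitochondrial features, block terms, and leaving out each library. A minimum of 10 cells, library totals without scaling factors and the split by mitochondrial share were chosen after seeing the data.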

Additional observations from a re-analysis of the deposited data

Results flagged for a closer look

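The class difference in rRNA share had opposite signs in the animals. The rRNA share of mitochondrial UMIs was lower in epithelial than in mesenchymal cells of LG252, by -19.2 and -14.1 percentage points, and higher in those of LG255, by 4.07 and 8.39. The change between the animals was 22.9 percentage points (exact permutation p = 0.333, the smallest this design allows), with as few as 22 cells in a class. It was picked from several measures and class pairs because the signs were opposite in all libraries of the animals. That choice fixes the p-value, so the test adds no support. The protein-coding share gave the mirror image, with a change of -22.5 percentage points. Both are parts of the same mitochondrial UMIs, so this is not a separate result.

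The animal effect of BW219_gt21 was larger in mesenchymal than in epithelial cells, by 3.18 on the log2 scale in the edgeR interaction test. The call rests on 6 UMIs in LG252 mesenchymal cells. It was lost under several alternatives, among them the looser gate, thinning, no library block and leaving out either LG255 library.

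Ungated barcodes, which the comparisons did not use, had a mitochondrial share of 16.0% in LG255 replicate 1 and 11.7% in LG255 replicate 2. These lay above the shares of 1.31% and 1.87% in LG252. The gates need UMIs of nuclear markers, and their part in these shares was not tested. Mixed barcodes, also not used, held 4.57% and 3.41% in LG255 against 1.59% and 1.48% in LG252.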

How the results depend on the processing

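The animal difference in mitochondrial share kept its direction under every alternative run, between 2.75 and 4.92 percentage points in epithelial and 3.04 and 5.05 in mesenchymal cells, and between 2.51 and 3.96 and between 3.41 and 3.98 when 1 library was left out. The rRNA share of mitochondrial UMIs was lower in LG255 throughout, by -38.6 to -32.2 percentage points in epithelial and -56.8 to -55.3 in mesenchymal cells, and by -38.8 to -27.0 and -64.2 to -47.4 when 1 library was left out. The difference between epithelial and mesenchymal share, -0.05 percentage points with no test passed, changed sign to 0.0573 with the looser gate, 0.223 with the gate by share, 0.0538 at no more than 20% mitochondrial UMIs, 0.169 without doublets, 0.477 after thinning and 0.0748 as a mean over cells, and ran from -0.22 to 0.177 when a library was left out.

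Of 902 alternatives to 57 called gene results, 732 kept the call, 170 lost it and 0 changed direction. Where only epithelial and mesenchymal cells entered, a minimum of 10 cells gave the same fit, so those calls were kept by construction. Genes that dropped out of an alternative's fit were not counted as lost. The animal calls in endothelial cells are not among the 57. Epithelial calls between animals, 19, ran from 12 to 21 when a library was left out. Mesenchymal calls, 7, became 12 with DESeq2 and 14 without the filter, and 0 to 14 with a library left out. Calls for epithelial against immune, 9, became 14 thinned, 4 with DESeq2, 0 without the library block and 5 with totals only (2 to 9 with a library left out). Epithelial against mesenchymal, 10, became 16 thinned, 17 without the filter, 0 without the block and 1 with totals only (4 to 13). Immune against mesenchymal, 1, became 0 with the gate by share, the 20% limit, doublets removed, DESeq2 or no block, and 4 without the filter (1 to 5). Endothelial against epithelial, 11, became 0 with DESeq2, 2 without the block and 1 with totals only (2 to 14). The interaction of mesenchymal and epithelial cells, 1, became 0 with the looser gate, the 20% limit, thinning or no block, and 4 with DESeq2 size factors, no filter or totals only (0 to 12). That of immune and epithelial cells, 0, became 3 with the looser gate, 5 with the gate by share, 7 thinned and 4 with a minimum of 10 cells. The causes were not tested. Thinning and dropping libraries leave fewer counts, and calls rose in some of these runs and fell in others.

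With the replicate number as a block, 19 epithelial and 11 mesenchymal mitochondrial genes were called. Libraries of the same number did not deviate together over the tested features (correlations -0.06 and -0.01). Each value rests on a single pair of library differences, which cannot decide if the numbers pair the samples. Of the 22 tRNA genes, 8 failed the filter in epithelial and 18 in mesenchymal cells, and the part of depth in this was not tested.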
